A study of Homo sapiens with 15 samples.

Results

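The genes described here are the receptors, receptor substrates and binding proteins of the insulin-like growth factor (IGF) system, chosen by symbol as IGF1R, INSR, IGF2R, IRS1, IRS2, IGFBP2, IGFBP3, IGFBP4, IGFBP5 and IGFBP6. Of these 10 genes, 7 had a row among the 17272 genes of the expression table. IGFBP4, IGFBP5 and IGFBP6 had none and were not analysed here. The cells were LNCaP, an androgen-sensitive human prostate cancer line. All cultures spent 2 days in medium with charcoal-stripped serum, which is depleted of steroids, and all then received the synthetic androgen R1881 at 1 nM. In 10 libraries the cells had R1881 with the solvent DMSO, and in 5 libraries they had R1881 with 2 µM enzalutamide, an inhibitor of the androgen receptor. Polyadenylated RNA was collected after 22 h. No library came from cells without R1881, so the comparison is between an androgen-stimulated state and the same stimulation under receptor blockade, in a single cell line.

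IGF1R is a tyrosine kinase receptor that binds IGF1 and IGF2, and INSR is its close relative, the insulin receptor. Both pass their signal through the docking proteins IRS1 and IRS2 to phosphoinositide 3-kinase (PI3K), AKT and mTOR, and negative feedback is built into several of these steps. IGF2R carries no kinase and takes IGF2 and mannose 6-phosphate-tagged enzymes to the lysosome, and the IGFBPs hold IGFs in the extracellular fluid. In prostate cancer cells the system is known as a growth and survival route that runs alongside androgen signalling.

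The annotated promoters of the genes the results turn on are shown first. Which start sites these cells use was not measured. The sequences run from 250 bases before to 50 bases after the RefSeq start site on GRCh38.p14, written 5′ to 3′ on the strand of the gene. IGF1R lies at chr15:98648289-98648588 on the plus strand, IRS2 at chr13:109786534-109786833 on the minus strand, INSR at chr19:7294365-7294664 on the minus strand and IGFBP3 at chr7:45921223-45921522 on the minus strand. IGF1R and IRS2 are shown because they fell most among these genes, INSR because it did not pass the test, and IGFBP3 because it rose. The RefSeq start of IGFBP3 lies inside the gene as GENCODE v44 draws it, so its window is downstream of the GENCODE start at 45921874. Capitals mark matches, on either strand, to the GC box GGGCGG or to TATANA.
IGF1R: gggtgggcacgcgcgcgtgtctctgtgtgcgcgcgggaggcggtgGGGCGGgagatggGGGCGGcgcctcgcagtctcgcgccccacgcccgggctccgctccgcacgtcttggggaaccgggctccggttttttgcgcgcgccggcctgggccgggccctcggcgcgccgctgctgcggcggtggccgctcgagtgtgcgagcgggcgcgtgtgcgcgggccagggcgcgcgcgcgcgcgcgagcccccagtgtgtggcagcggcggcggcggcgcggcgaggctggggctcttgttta
IRS2: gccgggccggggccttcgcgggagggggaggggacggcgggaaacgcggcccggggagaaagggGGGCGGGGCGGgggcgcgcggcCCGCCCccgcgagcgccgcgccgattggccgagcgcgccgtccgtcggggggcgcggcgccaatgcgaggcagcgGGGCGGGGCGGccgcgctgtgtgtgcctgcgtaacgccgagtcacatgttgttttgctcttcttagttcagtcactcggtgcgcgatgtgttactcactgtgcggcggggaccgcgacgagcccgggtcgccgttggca
INSR: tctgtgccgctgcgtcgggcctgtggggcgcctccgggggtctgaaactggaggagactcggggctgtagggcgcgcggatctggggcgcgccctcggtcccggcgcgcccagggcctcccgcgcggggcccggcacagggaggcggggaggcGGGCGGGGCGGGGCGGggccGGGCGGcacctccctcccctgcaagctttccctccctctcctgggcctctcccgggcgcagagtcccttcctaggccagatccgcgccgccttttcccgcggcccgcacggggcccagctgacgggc
IGFBP3: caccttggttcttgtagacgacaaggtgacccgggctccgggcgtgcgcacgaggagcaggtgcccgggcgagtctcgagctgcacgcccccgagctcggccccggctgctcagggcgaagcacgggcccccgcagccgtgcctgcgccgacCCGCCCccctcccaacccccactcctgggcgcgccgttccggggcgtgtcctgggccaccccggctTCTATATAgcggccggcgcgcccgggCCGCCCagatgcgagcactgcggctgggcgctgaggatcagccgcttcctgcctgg

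The 4 windows held 74.7% to 79.7% G and C. The IGF1R window had 2 GC boxes, the INSR window 4, the IRS2 window 5 and the IGFBP3 window 2, some of them overlapping or sharing bases. A GC box was found in 45% of all 35116 RefSeq promoters of this length. IGFBP3 was the one of the 4 with a TATANA match, present as 2 overlapping matches on opposite strands, against 19% of all promoters with at least 1. The androgen receptor half-site AGAACA, which 14.8% of all promoters hold, matched none of these 4 windows, nor those of IGF2R and IRS1. It matched 2 of the 3 IGFBP2 promoters, 1 match in each. These are letter matches in short windows and carry no measurement of binding.

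Libraries of R1881 cells held 15830745 to 24316740 reads counted on genes, and libraries of R1881 + enzalutamide cells 21188661 to 25416052. Levels are given in CPM, read counts divided by a library size that the authors had rescaled, as deposited, and differences as log2 fold changes of R1881 + enzalutamide against R1881 on log2(CPM + 0.5), tested with limma across the 17046 genes whose mean over all libraries reached 0.5 CPM and called at a Benjamini-Hochberg adjusted p under 0.05. By this test 62.5% of the tested genes were called, 29.8% as higher and 32.7% as lower with enzalutamide, and 4.19% were called and at least 2-fold lower. The groups did not overlap in 37.2% of genes. KLK3, the gene of prostate-specific antigen and a target of the androgen receptor, had 1345 to 1868 CPM with R1881 and 124 to 145 with R1881 + enzalutamide, and all 4 androgen-induced genes examined fell. All 8 luminal prostate markers had rows, with a summed level of 6804 to 7816 CPM with R1881 and 3683 to 3798 with R1881 + enzalutamide. Of the basal, fibroblast and endothelial lists, 1 of 3, 3 of 6 and 1 of 4 genes had rows, and none of 4 leukocyte genes. The fibroblast sum was 6.36 to 10.5 CPM with R1881 and 21.2 to 26.7 with R1881 + enzalutamide, the basal sum 0.706 to 1.44 and 0 to 0.279, and the endothelial sum 2.08 to 2.84 and 2.84 to 3.35. The part of these markers in the results below was not tested.

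All 7 genes passed the filter on low values. With enzalutamide, 4 fell (IGF1R, IRS2, IRS1 and IGF2R), 1 rose (IGFBP3) and 2 did not pass the test (INSR and IGFBP2). Of all tested genes 62.5% were called, 32.7% as lower and 29.8% as higher. The median log2 fold change of the 7 was -0.29, beside -0.01 over all tested genes. Their median absolute change was 0.76, beside 0.244. In 5 of the 7 the groups did not overlap, against 37.2% of all tested genes. For each of those 5 genes an exact permutation test, two-sided and over every assignment of the libraries, gave p = 0.000333. That is the smallest p it can give. Groups that do not overlap all but fix this p, so it adds no support beyond the non-overlap. In bulk RNA, fewer cells that express a gene and less RNA per cell cannot be told apart.

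**Figure D1:**
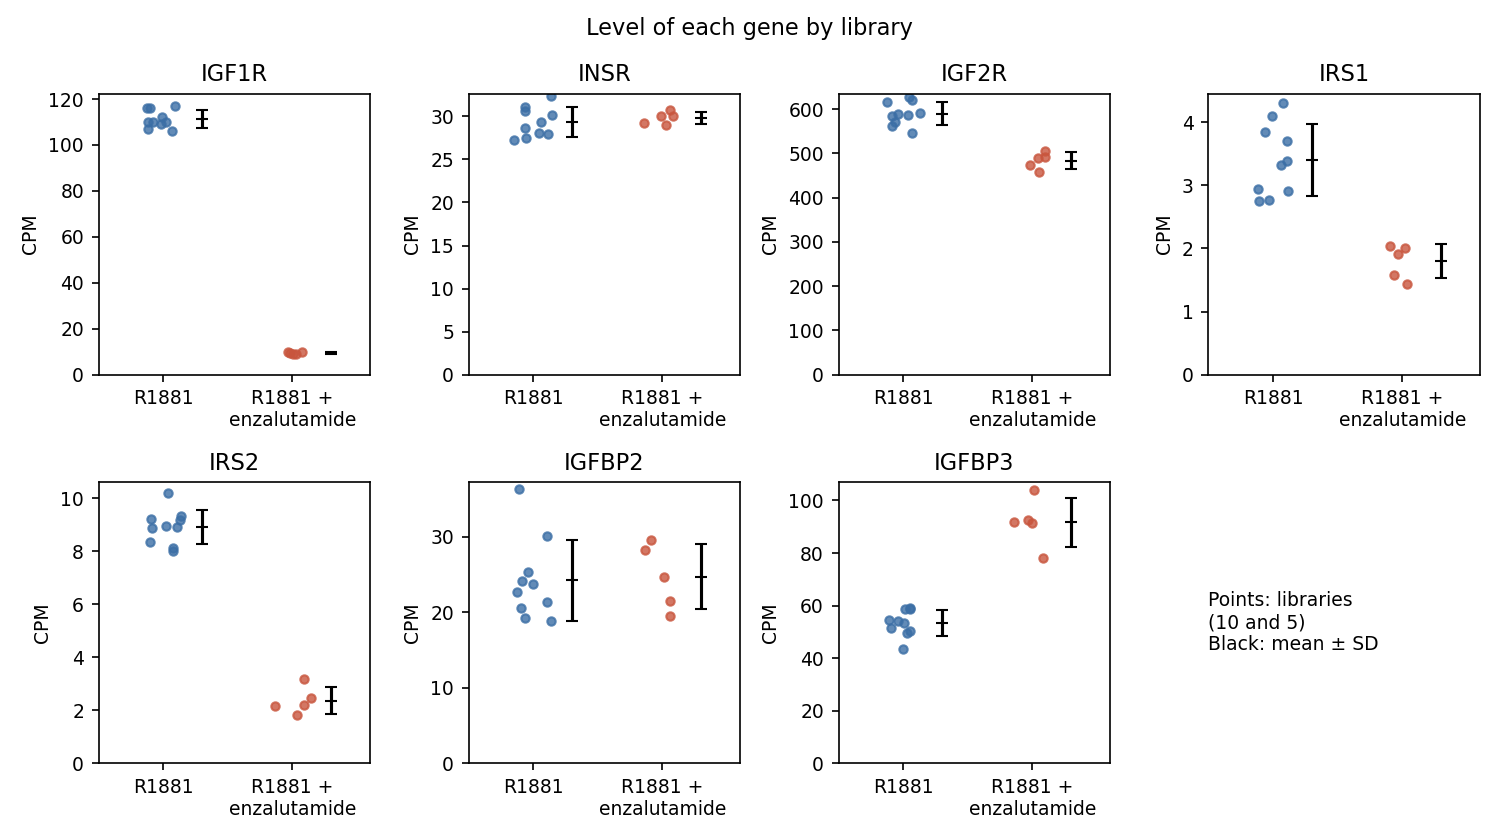
Level in CPM (y axis, starting at 0) of each of the 7 measured genes in each library, R1881 on the left (10 points) and R1881 + enzalutamide on the right (5 points), with mean ± SD in black. IGF1R, IRS1, IRS2 and IGF2R sit lower with enzalutamide and IGFBP3 higher with no overlap, while INSR and IGFBP2 overlap.

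IGF1R, the receptor kinase for IGFs, showed the largest change among the 7 genes. It is on the plus strand at chr15:98648539-98964530 (GRCh38, GENCODE v44), with 21 exons in its canonical transcript. With R1881 its level was 106 CPM in the lowest library, 110 at the median and 117 in the highest. With R1881 + enzalutamide the 5 libraries held 9.87, 8.79, 9.64, 9.21 and 10 CPM in replicates 1 to 5. Every enzalutamide library was thus far below every R1881 library, and the nearest pair of libraries was 96.2 CPM apart. The median fell by 91.3%, which is 11.4-fold lower. The log2 fold change was -3.48 (SE 0.038, 95% interval -3.56 to -3.40, adjusted p = 3.76e-24, limma), the 37th lowest of the 17046 tested genes. The value rests on 1628 to 2652 reads per R1881 library and on 189 to 256 per enzalutamide library. The CV between libraries was 3.37% and 5.34%, where counting error alone at these depths would give 2.11% and 6.82%. Noncoding genes lie on the opposite strand within the IGF1R locus, among them SYNM-AS1, but none had a row of its own in the table.

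INSR, the insulin receptor (chr19:7112255-7294414, minus strand, 22 exons), did not pass the test. R1881 libraries ran from 27.3 to 32.4 CPM with a median of 29.0, and the 5 enzalutamide libraries held 29.0, 30.0, 30.0, 29.2 and 30.7 CPM. The enzalutamide values lay inside the R1881 range. The log2 fold change was 0.02 (SE 0.046, 95% interval -0.07 to 0.12, adjusted p = 0.675, limma), so a change of more than 1.09-fold upward or to below 0.951-fold lies outside the interval. This call depends on scaling. The deposited values of a library sum to more with R1881 (1053406 to 1078567) than with R1881 + enzalutamide (985580 to 1008992), and with every library set to a total of 1000000 INSR was higher with enzalutamide, at a log2 fold change of 0.115 (adjusted p = 0.0306, limma, the lowest over the alternatives, which reached 0.941).

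To compare levels between genes, CPM was divided by the length of the canonical transcript in kilobases (kb). With R1881, IGF1R stood at 9.08 ± 0.306 CPM per kb (SD, n = 10) and INSR at 3.10 ± 0.182, so IGF1R transcript was the more abundant in each library. With R1881 + enzalutamide IGF1R stood at 0.777 ± 0.0415 (SD, n = 5) and INSR at 3.15 ± 0.0734, and the order was turned round in each library. The ratio of IGF1R to INSR per kb had a median of 2.94 with R1881 (range 2.74 to 3.21) and of 0.248 with R1881 + enzalutamide (range 0.227 to 0.264). IGF1R made up 74.6% of the summed level of the pair at the median with R1881 (73.2% to 76.2%) and 19.9% with R1881 + enzalutamide (18.5% to 20.9%). The sum itself went from 12.2 ± 0.436 to 3.92 ± 0.0899 CPM per kb. Both genes were read in the same libraries, so the ratio does not depend on the scaling of the library.

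**Figure D2:**
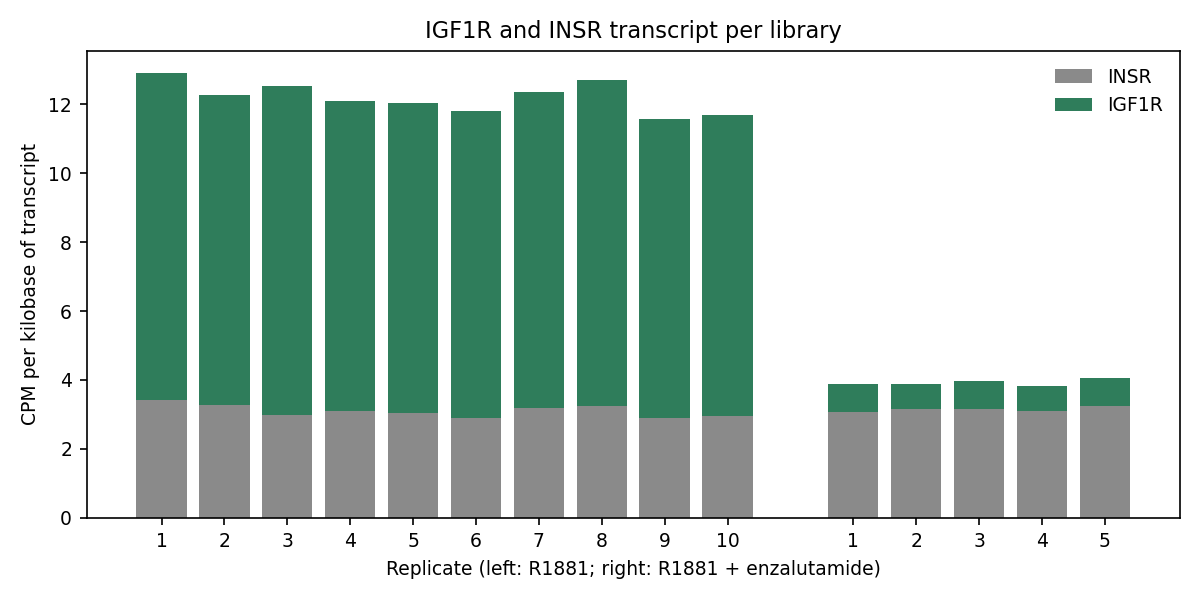
Stacked level of IGF1R (green) and INSR (grey) in CPM per kb of canonical transcript (y axis) for each library (x axis, 10 R1881 replicates on the left and 5 R1881 + enzalutamide replicates on the right). The grey part keeps nearly the same height, at 2.89 to 3.43, while the green part goes from between 8.68 and 9.52 to between 0.719 and 0.82.

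IGF2R, the mannose 6-phosphate receptor that clears IGF2, had the highest CPM of these genes and a small fall. It is at chr6:159969082-160113507 on the plus strand, with 48 exons. R1881 libraries held 547 to 627 CPM (median 588), and the enzalutamide libraries held 493, 489, 457, 505 and 475 CPM. The ranges did not meet, with 42.6 CPM between the nearest libraries. The log2 fold change was -0.29 (SE 0.035, 95% interval -0.36 to -0.21, adjusted p = 3.66e-07, limma), a median decrease of 16.9%. The antisense gene AIRN lies within the locus and had no row. IGF2R was at 572 CPM at the median of the 5 R1881 libraries labelled 51 to 55 and at 617 in those labelled 71 to 75. For KLK3 these medians were 1407 and 1770 CPM, so R1881 libraries differed by series under the same treatment. Enzalutamide libraries carry the labels 81 to 85. What these label numbers stand for is not given, and no number series holds both treatments, so series and treatment cannot be told apart.

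The transcripts of both docking proteins were scarce, and both fell. IRS2 (chr13:109752695-109786583, minus strand, 2 exons) was the more abundant of the pair with R1881. It held 8.00 to 10.2 CPM there, with a median of 8.94. In the enzalutamide libraries it held 1.82, 2.47, 3.18, 2.20 and 2.16 CPM, all below the R1881 libraries. Its log2 fold change was -1.73 (SE 0.089, 95% interval -1.92 to -1.55, adjusted p = 4.21e-13, limma), and the median was 4.06-fold lower. With 39 to 70 reads per enzalutamide library, counting error alone would give a CV of 13.7% there, and the observed CV was 21.7%.

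IRS1 (chr2:226731312-226799820, minus strand, 2 exons) had 2.75 to 4.31 CPM with R1881 (median 3.35) and 1.58, 2.00, 1.91, 1.44 and 2.04 CPM with R1881 + enzalutamide. The groups did not overlap, but the nearest libraries were 0.716 CPM apart. Its log2 fold change was -0.76 (SE 0.11, 95% interval -0.99 to -0.54, adjusted p = 3.16e-06, limma). Counts were 43 to 91 reads with R1881 and 32 to 52 with R1881 + enzalutamide, and the spread between libraries (CV 16.6% and 15%) was near that of counting alone (12% and 15.7%). The 95% intervals of the log2 fold changes of IRS1 and IRS2 did not overlap. IRS1 made up 24.2% of the summed per-kb level of the pair at the median with R1881 (20.1% to 28%) and 40.4% with R1881 + enzalutamide (33.4% to 44.1%), while the sum went from 1.44 ± 0.114 (SD, n = 10) to 0.473 ± 0.0788 (SD, n = 5) CPM per kb.

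Of the binding protein genes, IGFBP3, which encodes the main carrier of IGFs in serum, rose. It is at chr7:45912245-45921874 on the minus strand, with 5 exons. R1881 libraries held 43.4 to 59.2 CPM (median 53.6) and enzalutamide libraries 91.4, 104, 78.2, 92.6 and 91.9 CPM. All 5 enzalutamide libraries were above all 10 R1881 libraries, by at least 19 CPM. The log2 fold change was 0.78 (SE 0.067, 95% interval 0.64 to 0.92, adjusted p = 2.38e-09, limma), and the median was 1.71-fold higher.

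IGFBP2, a binding protein made by many epithelial tumours, did not pass the test and had the widest interval of the 7 genes. It is at chr2:216632828-216664436 on the plus strand, with 4 exons. R1881 libraries ran from 18.8 to 36.4 CPM (median 23.3), and enzalutamide libraries held 19.5, 29.6, 24.7, 21.5 and 28.3 CPM. The ranges overlapped for most of their length. The log2 fold change was 0.04 (SE 0.13, 95% interval -0.23 to 0.30, adjusted p = 0.819, limma), which leaves changes between 0.853-fold and 1.23-fold inside the interval. The CV was 22.2% with R1881 and 17.5% with R1881 + enzalutamide, against 4.51% and 4.23% from counting alone, so counting error made up a small part of it.

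The IGFBP2 level moved with a property of the libraries. In each library the deviation of every gene from its treatment mean was correlated, across genes, with the GC content of its transcript (80.8% of genes matched). These values, Spearman's rho, ran from -0.635 to 0.743, and genes are not independent replicates. The 3 libraries with the steepest positive trend were R1881 replicates 6 (0.743) and 5 (0.577) and R1881 + enzalutamide replicate 2 (0.718). They held 36.4, 30.1 and 29.6 CPM of IGFBP2, the highest values of their treatments. R1881 replicates 7, 9 and 10, with a rho of -0.571, -0.545 and -0.635, held 19.3, 21.4 and 18.8 CPM. These replicates carry the labels 53, 51 and 52, while R1881 replicates 6 and 5 carry 73 and 74. GC trend and number series cannot be told apart between these low and high R1881 libraries. R1881 + enzalutamide replicate 5 held 28.3 CPM at a rho of 0.002, so the level did not follow the trend in every library. With the trend removed within each treatment, the SE of the IGFBP2 difference was 0.042 instead of 0.13, and that of the other 6 genes stayed between 0.03 and 0.11. Without the 3 libraries, the log2 fold change of IGFBP2 was 0.085 (adjusted p = 0.382, limma, where all alternatives ran from 0.167 to 0.998). IGFBP3 was at 0.748, IGF1R at -3.459, IRS2 at -1.744, IRS1 at -0.794, IGF2R at -0.292 and INSR at 0.005, and the calls of all 7 genes were as with all libraries.

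**Figure D3:**
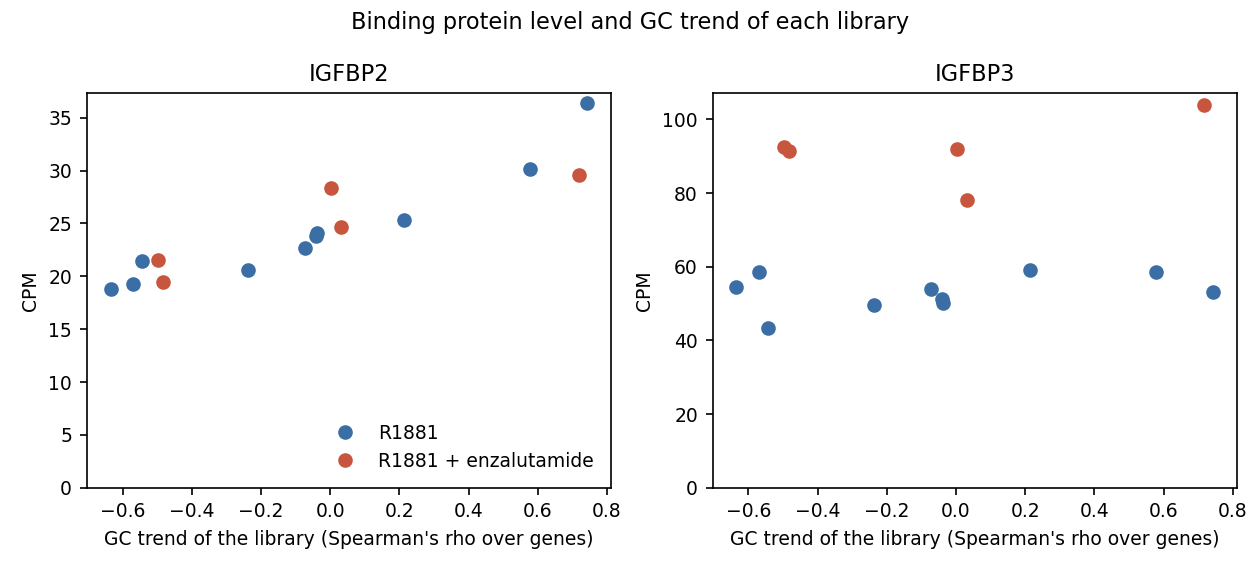
Level of IGFBP2 (left) and IGFBP3 (right) in CPM (y axes, from 0) against the GC trend of each library (x axes, Spearman's rho across genes), with R1881 in blue (10 points) and R1881 + enzalutamide in red (5 points). IGFBP2 goes from 18.8 CPM at a rho of -0.635 to 36.4 at 0.743 with both treatments mixed, while IGFBP3 separates by treatment at every rho.

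Ordered by level per kb with R1881, the genes ran IGF2R (42.0 CPM per kb), IGFBP3 (20.4), IGFBP2 (17.2), IGF1R (9.08), INSR (3.10), IRS2 (1.09) and IRS1 (0.348). The ranges of IGFBP3 and IGFBP2 overlapped, and those of the other neighbours did not. With R1881 + enzalutamide the order was IGFBP3 (35.1), IGF2R (34.4), IGFBP2 (17.5), INSR (3.15), IGF1R (0.777), IRS2 (0.290) and IRS1 (0.184), where only the ranges of IGFBP3 and IGF2R overlapped. Canonical lengths need not be those of the transcripts these cells use.

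Of the IGF ligands, IGF1 was the one with a row; IGF2 and INS had none. IGF1 fell, from 3.71 to 5.78 CPM with R1881 (median 4.45) to 0.404 to 0.93 CPM with R1881 + enzalutamide (median 0.706). The log2 fold change was -2.15 (SE 0.11, 95% interval -2.38 to -1.91, adjusted p = 5.53e-13, limma). It rests on 9 to 20 reads per enzalutamide library, and its size moves with the method, from -1.76 with a pseudocount of 1 to -2.79 with DESeq2 on recovered reads. HELLPAR, a noncoding gene on the opposite strand with a row of its own, overlaps the IGF1 locus, and the sources do not say if reads were assigned by strand.

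The wider pathway was followed in lists of 72 genes written by role, of which 55 had a row and 54 were tested. Of the 54, 18 rose, 20 fell and 16 were not called, with a median log2 fold change of -0.01, the same as over all tested genes. Of all tested genes 29.8% were higher and 32.7% lower, and the pathway counts were near these shares. With library totals set to 1000000 the number lower was 13. In that setting fewer genes were lower across the whole table too, 4288 of 17018 tested against 5577 of 17046.

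Among adaptors and feedback proteins at the receptor, 7 of 11 tested genes rose and 3 fell (background 29.8% and 32.7%). GRB10, an adaptor that binds IGF1R and INSR and inhibits their signalling, went from 177 to 198 CPM with R1881 to 785 to 836 CPM with R1881 + enzalutamide. Its log2 fold change was 2.12 (SE 0.030, adjusted p = 1.47e-22, limma), opposite in direction to IGF1R and IRS2. GAB1, a docking protein like the IRS proteins, rose by 0.69 on the log2 scale (SE 0.078).

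Of 5 tested PI3K subunit genes, 3 rose and none fell, with 2 not called (background 29.8% higher and 32.7% lower). PIK3R3, a regulatory subunit, went from 157 to 191 CPM to 289 to 330 CPM, a log2 fold change of 0.80 (SE 0.045). PIK3R1, the main regulatory subunit, rose by 0.70 (SE 0.058).

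In the AKT and mTOR branch 8 of 16 tested genes fell and 2 rose (background 32.7% and 29.8%). Most changes were small, with a median log2 fold change of -0.14 and a median absolute change of 0.19, beside 0.244 over all tested genes. The 2 genes named here had the largest. MTOR, the kinase at the centre of the branch, was at 133 to 153 CPM with R1881 and at 67.2 to 74.8 CPM with R1881 + enzalutamide, a log2 fold change of -1.01 (SE 0.036, adjusted p = 7.97e-16, limma). DEPTOR, an inhibitor of mTOR complexes, went the other way, from 7.43 to 9.07 CPM to 15.1 to 16.8 CPM, with a log2 fold change of 0.94 (SE 0.059).

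Of the phosphatases and SOCS inhibitors, which oppose signalling, 4 of 7 tested genes fell and 2 rose (background 32.7% and 29.8%). SOCS2, a cytokine and growth factor feedback inhibitor, was at 38.9 to 46.9 CPM with R1881 and at 5.21 to 5.91 CPM with R1881 + enzalutamide, a log2 fold change of -2.83 (SE 0.051, adjusted p = 7.63e-21, limma). Its antisense neighbour SOCS2-AS1 has a row of its own. INPP4B, a lipid phosphatase of the PI3K route, fell by 2.12 on the log2 scale (SE 0.059), from a median of 28.4 to 5.92 CPM.

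Of the FOXO factors, which AKT keeps out of the nucleus, 1 of 3 tested genes rose and 2 fell (background 29.8% and 32.7%). FOXO1 had a log2 fold change of -0.63 (SE 0.068) and FOXO4 of 0.56 (SE 0.074), and with edgeR 1 gene of the list was lower instead of 2. FOXO6 was below the filter. The mannose 6-phosphate sorting list holds another mannose 6-phosphate receptor and the enzymes and adaptors that serve IGF2R cargo. In it 2 of 7 genes rose, 1 fell and 4 were not called (background 29.8% higher and 32.7% lower). GNPTAB, a subunit of the enzyme that makes the mannose 6-phosphate tag, rose by 0.77 (SE 0.052), and GGA2, a sorting adaptor, fell by 0.24 (SE 0.037). Of the proteases of IGFBPs, their inhibitors and the convertase that matures the receptor, 1 of 3 tested genes rose, 1 fell and 1 was not called (the same background). None of the 4 other IGF-binding proteins listed had a row, and the 1 IGF2 mRNA-binding protein tested was not called.

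**Figure D4:**
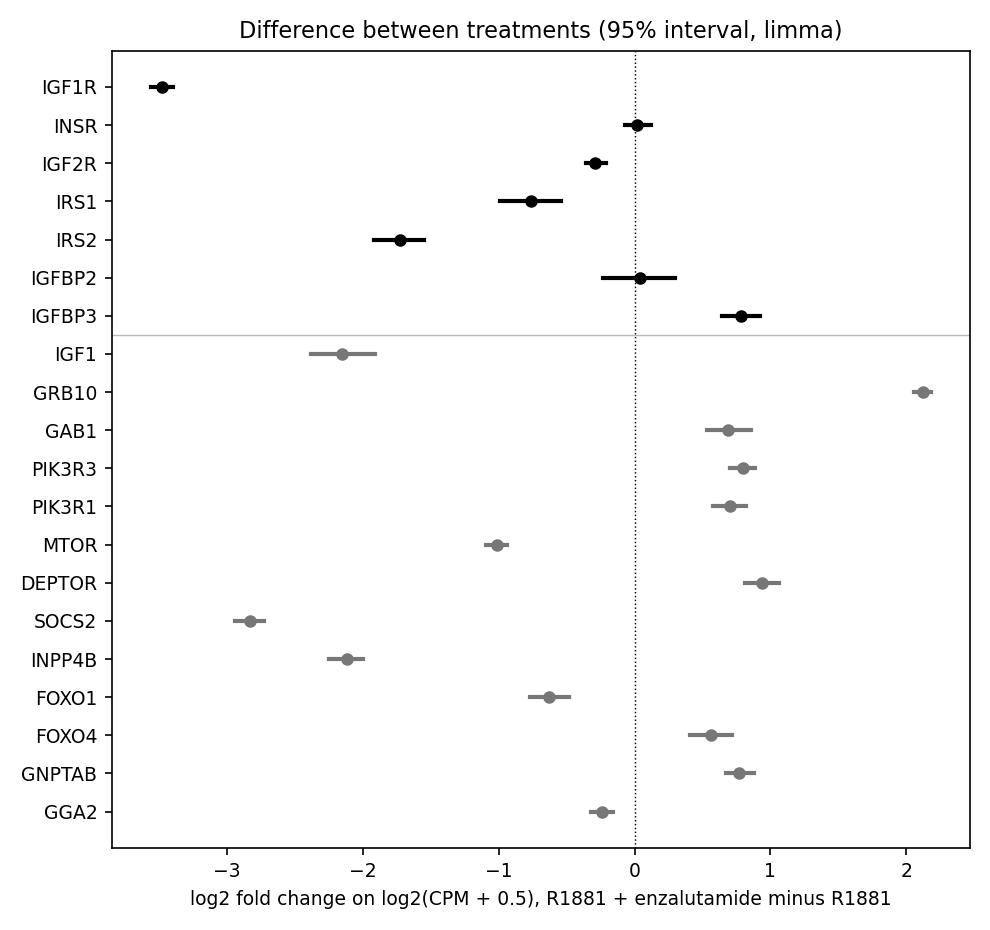
Log2 fold change of R1881 + enzalutamide against R1881 on log2(CPM + 0.5) (x axis), with 95% intervals from limma, for the 7 measured genes (black, above the line) and for IGF1 and the named genes of the pathway lists (grey). IGF1R lies furthest to the left at -3.48 and GRB10 furthest to the right at 2.12, and only the intervals of INSR and IGFBP2 cross 0.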

How the data were processed

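LNCaP RNA (poly-A, TruSeq Stranded, single-end) was mapped with STAR to GRCh38 and counted with featureCounts by the authors (bcl2fastq 2.17, per the labels). The deposited signal is CPM with rescaled library sizes. All values (100%) were whole multiples of 1 read (tolerance 0.01), which gave back the reads. No source used here gives the other tool versions, the annotation, the use of strand, the scaling or the rule for keeping 17272 genes. The labels give 10 R1881 and 5 combination libraries, and the methods text the reverse. The methods call them biological replicates. If cultures were shared, p-values measure technical spread. No library repeated another (55 same-treatment pairs), and every column had a sample.

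Differences were tested with limma 3.58.1 in R 4.3.3 (trend on log2(CPM + 0.5), genes averaging 0.5 CPM or more, treatment only, Benjamini-Hochberg adjusted p under 0.05). The design had assumed plain CPM. edgeR 4.0.16 and DESeq2 1.42.0 on recovered reads, pseudocounts, filters, scalings, number series, a block, single libraries left out and a 2-fold minimum were alternatives. GC trend removal (spline, 5 degrees of freedom) and leaving out 3 libraries, and R1881 replicates 1 to 5 alone, were added after the data were seen. Code was tested on simulated reads. Outside the 10 genes, IGF ligands and androgen-induced genes, the text names from each list the 2 called genes with the largest change whose groups did not overlap and whose mean CPM reached 5. Marker lists are given as sums. The genes and lists were chosen with earlier results of these data known, so they are not independent of them. Positions are from GENCODE v44, promoters from RefSeq, and all 10 genes had a promoter.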

Additional observations from a re-analysis of the deposited data

Results flagged for a closer look

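In 50 groups of library values, over depth and the genes named, 3 had a single library far from the others by Dixon's test (critical value 0.71), where chance gives about 1 in 20. R1881 + enzalutamide replicate 5 had 25416052 counted reads, where the other 4 had 21188661 to 22329140. GAB1 was at 22.5 CPM in R1881 + enzalutamide replicate 1 and at 16.5 to 18.2 CPM in the others of that treatment. ERRFI1, a feedback inhibitor of ERBB receptors, was at 29.1 CPM in R1881 + enzalutamide replicate 3 and at 31.9 to 32.6 CPM in the others. No value of the 7 IGF receptor, substrate and binding protein genes was among them.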

How the results depend on the processing

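The calls of IGF1R, IRS2, IGF2R and IGFBP3 were the same in the 30 alternatives that refit or rescale the data, at log2 fold changes of -3.534 to -3.387, -1.906 to -1.57, -0.329 to -0.193 and 0.73 to 0.87. IRS1 (-0.918 to -0.651) kept its call in 29 and was below a filter of mean CPM 5. With library totals set to 1000000, the genes called went from 5083 higher and 5577 lower (47.7% higher) to 6629 higher and 4288 lower (60.7%), and the median of all genes moved by 0.085. There 2 of the 7 genes were higher and 13 pathway genes lower, INSR passed at 0.115 (permutation p = 0.0147), and the ratios of median CPM were 0.0932 for IGF1R, 1.0937 for INSR and 0.88 for IGF2R. A 2-fold minimum left 1270 genes, 0 of the 7 higher and 2 lower (IGF1R and IRS2), so that IGF2R, IRS1 and IGFBP3 lost their calls, and 1 pathway gene higher and 4 lower. Against the R1881 libraries labelled 71 to 75 alone, IGFBP2 was at -0.097 (permutation p = 0.619) and the IGF2R ratio at 0.7916. With single libraries left out IGFBP2 ran from -0.03 to 0.12 (permutation p from 0.411 to 0.998), below 0 without R1881 replicate 10 (-0.00032, permutation p = 0.998) or without R1881 + enzalutamide replicates 2 (-0.032, p = 0.855, permutation) or 5 (-0.015, p = 0.936, permutation). Same-numbered libraries of the treatments did not deviate together (r -0.068 to 0.074 in 5 pairs, 0 closest to their own number). A block for the replicate number could use only R1881 replicates 1 to 5. With these and all enzalutamide libraries, 10333 genes were called without the block and 10117 with it, against 10660 with all libraries. INSR was at -0.006 both with and without the block, and no call of the 7 genes changed. The causes of these moves were not tested. GC trend removal leaves fold changes as they are and understates p, since the fitted terms are not counted. Depth limits IRS1, IRS2 and IGF1, with as few as 32, 39 and 9 reads per library.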

Other observations

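The ERBB receptors, another receptor kinase family, are given for comparison, in 1 list with their negative regulators. Of 5 tested genes 4 fell and 1 rose (32.7% and 29.8% of all tested genes), with a median log2 fold change of -0.95. The gene that rose was a receptor and the other tested receptors fell, so the receptors did not move together. The IGF receptor, substrate and binding protein genes had 4 of 7 lower and a median of -0.29. ERRFI1, which binds and inhibits ERBB kinases, had 148 to 189 CPM with R1881 and 29.1 to 32.6 CPM with R1881 + enzalutamide, a log2 fold change of -2.40 (SE 0.054, adjusted p = 2.97e-19, limma). LRIG1, a membrane protein that promotes the breakdown of these receptors, had 234 to 260 CPM and 53.9 to 60.5 CPM, a log2 fold change of -2.11 (SE 0.034, adjusted p = 1.11e-21, limma). The difference between the lists was not tested.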
